A study of Homo sapiens with 12 samples.

Results

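The 10 genes described here store iron, release it from storage, carry it across membranes, sense it or hold it in iron-sulfur clusters, and each has been linked to ferroptosis, cell death driven by iron and lipid oxidation. They are FTH1, FTL, NCOA4, TFRC, STEAP3, SLC11A2, SLC40A1, IREB2, CISD1 and CISD2, taken by symbol from the deposited tables, out of 18329 gene names in those tables. Of the 10 genes, 8 had at least 1 m6A peak, and 5 also had a region listed as differing between conditions. HGC27, an established line of human gastric carcinoma cells, was studied as controls (genotype WT, titled Con) or with FTO depleted (genotype FTO-KO, titled sh). FTO is a demethylase of RNA that acts on N6-methyladenosine (m6A). The protocol speaks of a knockdown and that word is used here; no agent that induces ferroptosis, and no iron or iron chelator, is named for either group. Poly(A) RNA was fragmented, and fragments bound by an m6A antibody (IP) were sequenced beside unbound input, with 3 IP and 3 input libraries per condition. Nothing in the labels tells separate cultures or hairpins apart among same-group libraries. The limma p-values for expression measure the spread between these libraries, which may be technical. The authors' m6A p-values came with no m6A value per library, so what spread they measure cannot be told.

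Ferritin, a shell of heavy (FTH1) and light (FTL) chains, keeps iron out of reach of reactions that oxidise lipids, and NCOA4 delivers ferritin to the lysosome for breakdown. Iron enters cells bound to transferrin through the receptor TFRC, is reduced in the endosome by STEAP3 and crosses the endosomal membrane through SLC11A2 (DMT1), and SLC40A1 (ferroportin) exports it. When iron is low, the iron regulatory proteins, one of them encoded by IREB2, bind stem-loops named iron-responsive elements, which holds back ferritin and ferroportin translation and stabilises TFRC RNA. CISD1 (mitoNEET) and CISD2 are iron-sulfur proteins of the outer mitochondrial membrane and of the endoplasmic reticulum.

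FTO itself read 5.48, 5.68 and 5.52 FPKM in control input and 0.786, 0.83 and 0.765 FPKM in knockdown input, far below. FPKM (fragments scaled to transcript length and library size) were deposited per input library for 6396 genes, all of them genes with a differential region. They summed to 74330, 74289 and 78461 in control libraries and to 86902, 83712 and 84326 in knockdown libraries. Library medians of log2(FPKM + 1) over tested genes went the other way, at 2.72, 2.72 and 2.69 against 2.61, 2.63 and 2.62. Sequencing depth was unknown. limma, run on the 4515 genes whose mean reached 1 FPKM, called 2819 (62.4%) at a 0.05 threshold on the adjusted p, and of these 39.3% rose as deposited, 52.5% after quantile normalization and 55.4% after median-centring. Markers of gastric epithelium were sparse: 3 of 8 had a peak, and EPCAM had neither a peak nor an FPKM value. All 5 fibroblast markers had a peak, with COL1A1 at 169 and 147 FPKM. Of the fibroblast markers with FPKM, COL1A1 was lower and THY1 higher after knockdown (12.5 and 15.0 FPKM), and their part in the results was not tested. In bulk RNA, fewer cells of a type and less RNA per cell cannot be told apart.

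Positions are given from 1 and read as GRCh38, on which all 36 peaks and 6 differential regions of the 10 genes fell on the RefSeq locus of their gene. Sequence around the start of transcription was taken from RefSeq (GRCh38.p14) for the 9 genes with an entry. Among the stretches in that table, which holds later starts of IREB2 but not its first, a peak of the same gene reached the one of STEAP3, where the peaks of both conditions opened 3 bases before the annotated start. The 30 bases from that start, chr2:119223834-119223863 on the plus strand, are shown with the letters GGAC, the core most often methylated in mRNA, in capitals. Beside them are the last 30 of the first 50 transcribed bases of FTL, chr19:48965329-48965358 on the plus strand, where no peak was listed on FTL; their capitals mark GGAC and, before it, the CAGTGT loop that typifies an iron-responsive element.
STEAP3: gccttcgccgcGGACcttcagctgccgcgg
FTL: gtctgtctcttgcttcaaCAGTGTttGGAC
In the first 50 transcribed bases, GGAC was present in 18.9% of 35116 RefSeq windows on the transcribed strand and in 33.5% on either strand. CAGTGN was present in 6.36% on the transcribed strand and 12% on either strand. The 9 genes with an entry had 14 such windows. On the transcribed strand, 3 of these windows held GGAC (FTL, STEAP3 and TFRC) and 2 held CAGTGN (FTL and NCOA4). FTH1 had no entry, so its start was not searched. The letters do not overlap in the FTL stretch, and their presence marks neither a methylated base nor a bound protein.

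FTH1, the iron-oxidising ferritin chain, was the most abundant of the 5 genes with FPKM and gained both RNA and listed m6A after FTO knockdown. FTH1 RNA was 592, 566 and 612 FPKM in control libraries, against 713, 705 and 723 FPKM in knockdown libraries. All 3 knockdown libraries lay above all 3 controls; such separation, in either direction, was seen for 67.8% of all tested genes. The mean rose from 590.0 ± 23.5 to 714 ± 9.02 FPKM (SD, n = 3), 1.21-fold, and limma gave a log2 change of 0.27 (SE 0.0492, adjusted p = 0.00182). After quantile normalization the change was 0.08 and missed the threshold (limma, adjusted p = 0.0898).

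The deposited m6A change was turned to knockdown over control, as explained under the processing. FTH1 carried one differential region, chr11:61964763-61965271 in the 3' UTR, higher after knockdown by 0.56 on the log2 scale in the authors' deposited table (log10 of the adjusted p -434). It covered a peak found with the same ends in both lists, chr11:61964792-61965271, whose enrichment of IP over input was 2.70-fold in controls and 3.67-fold after knockdown. The enrichments are the authors' own, from a single list per condition, and carry no replicate error. The second FTH1 peak lay in the 5' UTR, where ferritin's iron-responsive element resides, and stood at 2.90-fold and 3.17-fold. It reached from chr11:61967160 to 61967634 in controls over 330 exonic bases, and after knockdown over 180 bases, those nearest the start of the RNA. That peak had no differential region.

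The FTH1 signals are not free of neighbours. The 3' UTR region was listed again, at chr11:61964766-61965275, under AP003733 on exons of BEST1, with enrichments of 2.74-fold and 3.73-fold and an m6A change of 0.56, so one signal stands under both entries. Whether counting used the strand is not given in the sources used here, so reads of the genes cannot be told apart. Near the start of FTH1, the knockdown list also held an AP003733 peak at chr11:61967883-61968062 (16.2-fold), 249 bases outside the gene. The control list held none there. Pseudogene copies named for FTH1 or FTL also had peaks, 10 copies in each list and 8 in both. Copies with FPKM of at least 1 were FTH1P7 and FTH1P23. FTH1P7 stood at 17.4, 14.5 and 18.4 FPKM in controls and at 21.0, 22.4 and 23.1 FPKM after knockdown. FTH1P23 stood at 11.4, 9.09 and 11.5 against 14.8, 13.6 and 13.3 FPKM. Both rose (limma, adjusted p = 0.00415 and 0.00731), as FTH1 did, and how near-identical reads were shared among these loci is unknown. Of 4 copies with a differential region, 3 were higher and 1 lower after knockdown, up by 0.95 at FTH1P7 and down, with a log2 change of -1.01, at FTH1P23 in the authors' deposited table.

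FTL, the light ferritin chain, had no peak in either list and no differential region, and no FPKM was listed for it. The nearest peaks, under AC026803, ended 387 bases before the start of FTL in controls (4.92-fold) and 417 bases before it after knockdown (9.82-fold).

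NCOA4, the cargo receptor for ferritin, gained listed m6A without a called change in RNA. Its one peak lay in exon 8 of 10, at chr10:46010342-46011092 in controls (3.56-fold) and from 46010402 to 46011092 after knockdown (3.90-fold). The differential region at chr10:46010342-46011092 was higher after knockdown by 0.43 on the log2 scale in the authors' deposited table (p = 2.51e-37). NCOA4 RNA stood at 35.8, 35.0 and 31.8 FPKM in controls and 31.2, 32.8 and 33.7 FPKM after knockdown, so the groups overlapped. With limma the log2 change was -0.07 (SE 0.0543, adjusted p = 0.311).

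TFRC, the transferrin receptor, was the gene whose differential region lay away from its peaks. The region, chr3:196074050-196074211, was annotated as 5' UTR of a retained-intron transcript and was higher after knockdown by 0.54 on the log2 scale in the authors' deposited table (p = 2.00e-17), but neither list held a TFRC peak there. The listed peak lay in the 3' UTR, the end of the RNA that carries TFRC's iron-responsive elements, at chr3:196051754-196053436 in controls (3.07-fold) and chr3:196051844-196052113 after knockdown (2.98-fold). TFRC RNA stood at 48.9, 49.2 and 40.0 FPKM in controls and at 48.7, 52.6 and 51.9 FPKM after knockdown. Control library 3 was low, and knockdown library 1 lay just below the other controls. Means were 46.0 ± 5.23 and 51.1 ± 2.04 FPKM (SD, n = 3), and limma did not call the change of 0.15 (SE 0.0797, adjusted p = 0.127). The authors' deposited table gave TFRC a q-value of 0.00197 for the same direction, and limma passed it after median-centring (log2 change 0.25, adjusted p = 0.0204) but not after quantile normalization (0.07, adjusted p = 0.471). Without control library 3 the log2 change was 0.06 (limma, adjusted p = 0.259).

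**Figure D1:**
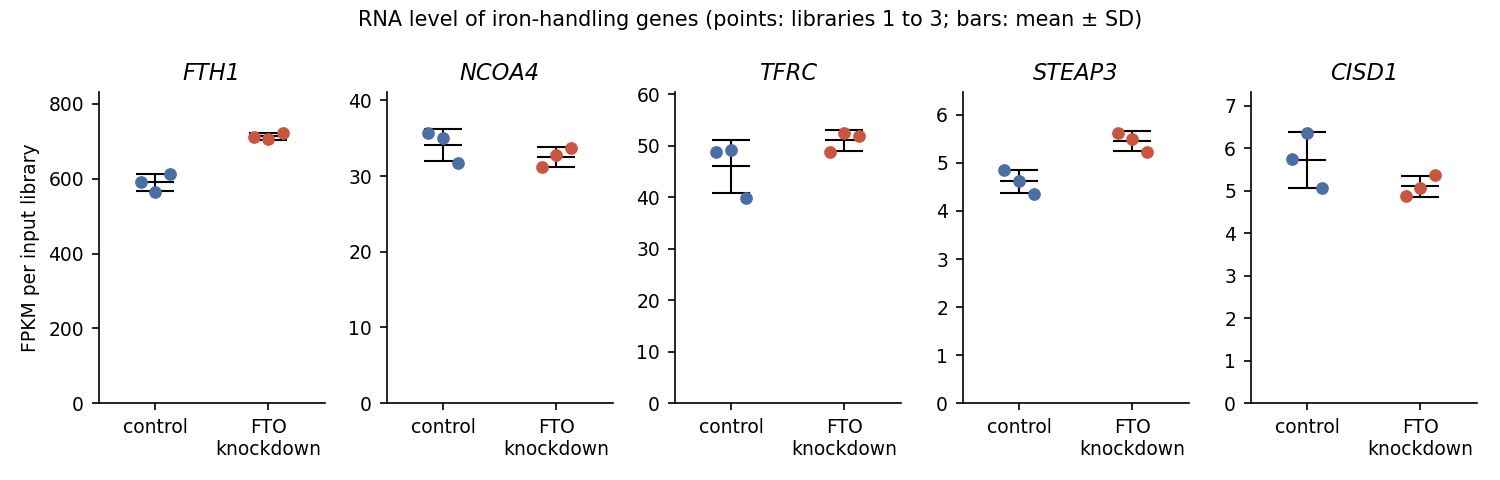
RNA level in FPKM (vertical axis, from 0) of the 5 iron-handling genes with listed values, in 3 control and 3 FTO knockdown input libraries. Points are libraries, horizontal bars the mean and whiskers the SD. The groups stand apart for FTH1 (highest control 612, lowest knockdown 705 FPKM) and STEAP3 (4.86 and 5.23 FPKM) and overlap for NCOA4, TFRC and CISD1.

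STEAP3, the endosomal ferrireductase, had the most peaks of the 10 genes and lost listed m6A in its 3' UTR while its RNA rose. It had 6 peaks in the control list and 8 in the knockdown list, where 4.11% and 1.01% of genes with a peak had as many. STEAP3 RNA stood at 4.86, 4.62 and 4.36 FPKM in controls. The knockdown libraries, at 5.63, 5.50 and 5.23 FPKM, all lay higher. Its mean rose from 4.61 ± 0.247 to 5.46 ± 0.205 FPKM (SD, n = 3), 1.18-fold, with a limma log2 change of 0.20 (SE 0.0507, adjusted p = 0.00912).

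Both differential regions of STEAP3 lay near the 3' end of the RNA and were lower after knockdown in the authors' deposited table. In that authors' deposited table the region chr2:119264191-119265056 had a log2 change of -0.33 (log10 of the adjusted p -2.26). For chr2:119265115-119265503 the authors' deposited table gave -0.65 (log10 of the adjusted p -4.45). In the first, the control list had a peak of 4.13-fold at chr2:119264161-119264609, which shrank to separate peaks of 1.92-fold and 2.69-fold in the knockdown list. A weaker control peak of 1.63-fold at chr2:119264847-119265026 stood against knockdown peaks of 1.51-fold and 1.39-fold. In the second, 3.70-fold in controls stood against 2.39-fold after knockdown. Farther upstream in the 3' UTR, the peak at chr2:119263208-119263595 had 5.70-fold and 5.09-fold enrichment and no differential region.

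**Figure D2:**
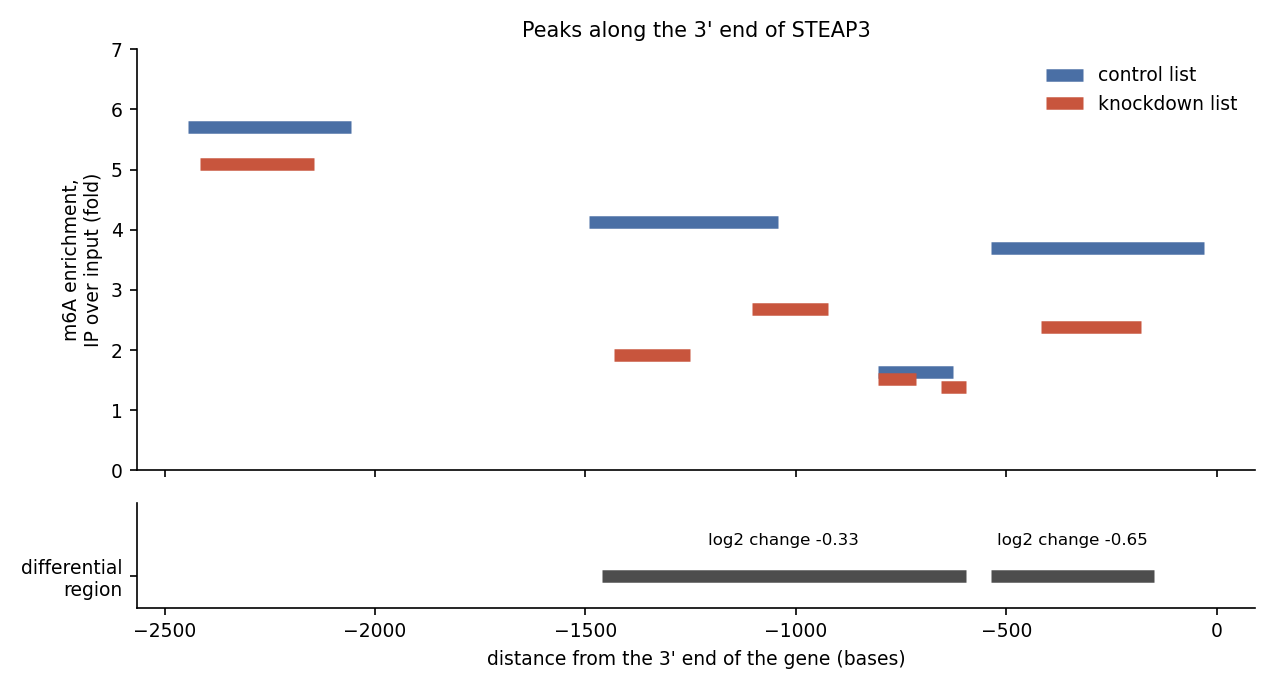
Peaks along the 3' end of STEAP3, by distance in bases from the end of the gene (horizontal axis) and enrichment of IP over input (vertical axis, fold); bars span each peak. Below, grey bars mark the differential regions, with log2 changes of -0.33 and -0.65, and every knockdown peak lies under the control peak it overlaps.

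The 5' end of STEAP3 went the other way in the lists. The peak over the printed start, chr2:119223831-119230651 across an intron, had 2.71-fold enrichment in controls and 3.05-fold after knockdown. The next, ending at 119245753 in controls and at 119245723 after knockdown, had 5.36-fold and 8.89-fold. Neither had a differential region. The second overlapped a peak listed for STEAP3-AS1, the antisense gene, at chr2:119245471-119245741 (5.34-fold) in controls and 119245471-119245711 (7.19-fold) after knockdown, so its strand cannot be told.

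SLC11A2, the iron transporter DMT1, had 2 peaks in each list, annotated as 3' UTR of a retained-intron transcript. Their enrichments hardly differed between the lists. The main peak, at chr12:50986616-50987545 in controls, stood at 7.81-fold and 7.98-fold, and the weaker one, from chr12:50988024, at 1.98-fold and 2.08-fold. SLC11A2 had no differential region, so no FPKM was listed.

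SLC40A1, the iron exporter ferroportin, had the strongest peak of the 10 genes. It was annotated to exon 6 of 8 of a retained-intron transcript, at chr2:189563717-189565413, in controls, with 16.5-fold enrichment, above 90.3% of control peaks when ranked. The knockdown list held 270 bases of it, chr2:189563836-189564105 (annotated to exon 7), at 14.0-fold, the 78.6th percentile of its list. A weak control peak in exon 8 (1.73-fold, log10 of the adjusted p -2.74) had no counterpart after knockdown. IREB2, the iron regulatory protein IRP2, had a 3' UTR peak from chr15:78497228 to 78498670 in controls (11.8-fold) and from 78497318 to 78498341 after knockdown (10.3-fold). Further control peaks of IREB2 had no counterpart after knockdown, at 4.93-fold in the 3' UTR (log10 of the adjusted p -17.9) and at 7.64-fold in the 5' UTR, opening at the first base of the RefSeq gene, chr15:78437431 (log10 of the adjusted p -1.09, over 0.05 after adjustment). Neither SLC40A1 nor IREB2 had a differential region, and FPKM were not listed for them.

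CISD1, the mitochondrial iron-sulfur protein mitoNEET, had lower listed m6A after knockdown. Its peaks and differential region were annotated as 3' UTR of a processed transcript, not of a protein-coding one. The peak at chr10:58287582-58287941 had 4.23-fold enrichment in controls and, from 58287582 to 58287881, 2.69-fold after knockdown. The differential region at the control coordinates had a log2 change of -0.36 in the authors' deposited table (p = 3.02e-05). A control peak of 60 bases farther on (3.63-fold, log10 of the adjusted p -1.40) had no counterpart. CISD1 RNA stood at 5.74, 6.36 and 5.06 FPKM in controls. Knockdown libraries, at 4.88, 5.05 and 5.37 FPKM, overlapped them (limma, log2 change -0.14, SE 0.0736, adjusted p = 0.139). CISD2 had no peak, differential region or FPKM value; the nearest listed peak, on UBE2D3 in controls (3.71-fold), ended 186 bases before its start.

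The 10 genes together had 19 control and 17 knockdown peaks. Of these, 15 control and all 17 knockdown peaks overlapped a peak of the other condition by at least 1 exonic base, against 58.2% of all control and 89.0% of all knockdown peaks. Median enrichment was 3.70 and 3.05, below the medians of all peaks (6.11 and 7.05). Peaks were annotated as 3' UTR in 12 of 19 and 12 of 17 cases, against 47.6% and 46.5% of all peaks. For SLC11A2 and CISD1 that annotation was of transcripts not listed as protein-coding. Of the 15 control peaks with a counterpart on the same gene, 7 had higher and 8 lower enrichment after knockdown, 10 of them within 1.2-fold. The 4 that differed by over 1.5-fold were the second 5' UTR peak and a pair of 3' UTR peaks of STEAP3, and the CISD1 peak. These counts describe a single list per condition and were not tested.

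**Figure D3:**
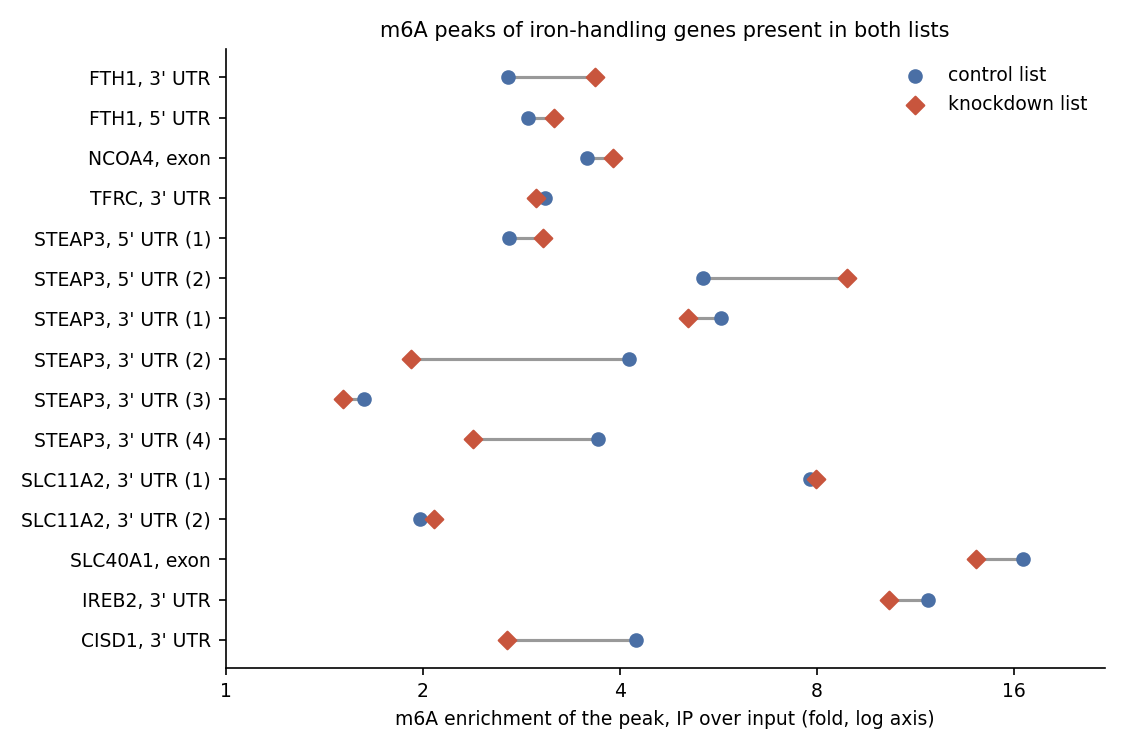
Enrichment of IP over input (horizontal axis, fold, log scale) of the 15 control peaks with an overlapping knockdown peak on the same gene; circles are control, diamonds knockdown, and numbers in brackets order peaks along the genome. Where a control peak overlapped more than one knockdown peak, the one sharing most bases is shown. FTH1 and NCOA4 lie higher after knockdown, CISD1 and the 3' UTR peaks of STEAP3 lower.

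Differential regions were listed for 5 of the 10 genes, all among the 8 with a peak, against 33.1% of all genes with a peak or such a region. Of the 6 regions, 3 were higher after knockdown (FTH1, NCOA4, TFRC) and 3 lower (STEAP3 with 2, CISD1), where 55.4% of all 8687 regions were higher and 44.6% lower. All 6 changes were smaller than the median absolute change of all regions, 0.69 on the log2 scale. Of the 5 genes with FPKM, 2 rose and none fell in limma, against 24.5% and 37.9% of all tested genes, with a median log2 change of 0.15 beside -0.07 for all. Without control library 3, limma also called falls of NCOA4 (log2 change -0.12, adjusted p = 0.0421) and CISD1 (-0.21, adjusted p = 0.0143). Levels ran from FTH1 through TFRC and NCOA4 to CISD1 and STEAP3. CISD1 and STEAP3 did not keep apart: CISD1 was higher in controls, and their ranges overlapped after knockdown (4.88 to 5.37 and 5.23 to 5.63 FPKM).

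A further 61 iron genes were taken for context, of which 43 had a peak, 17 a differential region and 14 an FPKM mean of at least 1. Of these 14, 2 rose and 5 fell in limma (median log2 change -0.10), 4 rose and 5 fell after quantile normalization, and 5 rose and 4 fell after median-centring. Among uptake, export and storage genes, 1 of 3 tested fell. HMOX2, the constitutive haem oxygenase, fell, with control libraries at 8.51 ± 0.291 and knockdown libraries at 5.76 ± 0.406 FPKM (mean ± SD, n = 3), a limma adjusted p of 0.000177 and m6A higher by 0.35 in the authors' deposited table. The ferrireductase CYBRD1 and the haem transporter SLC48A1 were not called. CYBRD1 passed as a rise after quantile normalization and median-centring (limma, adjusted p = 0.00728 and 0.00945) and by the q-value of the authors' deposited table (0.0199). STEAP2 and SLC46A1 had means under 1 FPKM. Of the regions on these genes, those on SLC48A1 and SLC46A1 were higher and those on CYBRD1 and STEAP2 lower.

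Of 4 tested genes of the regulation list, NEO1 fell. Its control libraries stood at 21.3 ± 0.103 and knockdown libraries at 18.2 ± 0.338 FPKM (mean ± SD, n = 3), with a limma adjusted p of 0.00114. The q-value of NEO1 in the authors' deposited table was 0.483, which is no call. Its regions were lower in the 5' UTR (-0.77) and higher in the 3' UTR (0.41). PHLPP2, a phosphatase acting on AKT and not itself an iron regulator, rose from 3.58 to 5.65 FPKM. It makes up 1 of the 2 limma rises counted above among the other iron genes. FBXL5, which targets IREB2 protein for degradation, and its ligase partner CUL1 were not called (limma, adjusted p = 0.306 and 0.14), with m6A higher at FBXL5 (1.2) and lower at both CUL1 regions (-0.69 and -0.57). HAMP, which encodes hepcidin, had FPKM of at most 0.0949.

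Of 7 tested genes of mitochondrial iron, iron-sulfur clusters and haem, NFU1 (6.77 to 4.65 FPKM), the transporter ABCB10 (3.87 to 2.62 FPKM) and the haem enzyme UROD (13.3 to 11.9 FPKM) fell, and the cluster assembly factor IBA57 (1.16 to 1.62 FPKM) rose. The authors' deposited table, with q-values of 0.058 for NFU1 and 0.948 for UROD, made neither a call. UROD also lost its call after median-centring (limma, adjusted p = 0.311) and without control library 1 or knockdown library 1 or 3 (limma, adjusted p = 0.068, 0.0767 and 0.0657). GLRX5 and ALAD were not called (limma, adjusted p = 0.0537 and 0.059). GLRX5 passed as a rise after median-centring and among genes of at least 5 FPKM (limma, adjusted p = 0.0171 and 0.0486), and by the q-value of the authors' deposited table (0.00428). Without control library 3, limma called GLRX5, ALAD and CUL1 (adjusted p = 0.000544, 0.0189 and 0.0135), and without control library 1 it called CYBRD1 (adjusted p = 0.0364). Regions were higher on IBA57 (1.05), NFU1 and UROD, lower on ABCB10 and GLRX5, and went both ways on ALAD (0.81 and -0.60).

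**Figure D4:**
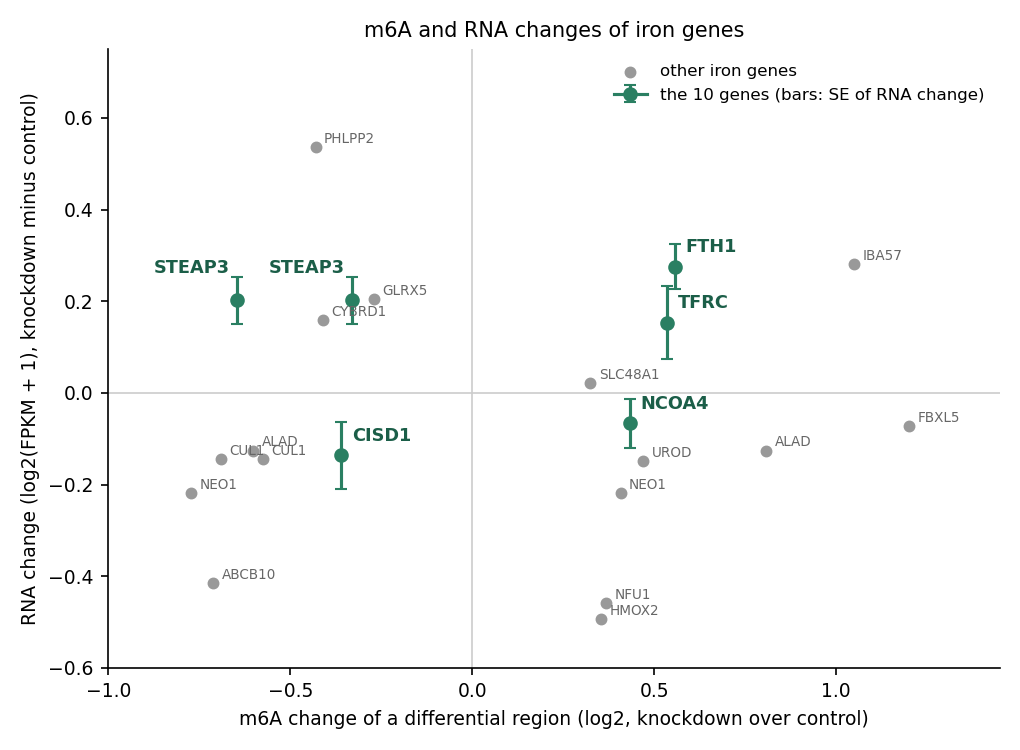
Change of m6A at each differential region (horizontal axis, log2, knockdown over control, authors' values) against change of RNA (vertical axis, log2(FPKM + 1), knockdown minus control). Green points with SE bars are regions of the 10 genes and grey points those of the other tested iron genes named in the text. FTH1 and TFRC lie above 0 on both axes, and both STEAP3 regions combine lower m6A with higher RNA.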

How the data were processed

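The 10 genes and the gene lists were chosen with earlier results of these data known. Per the submitters' processing notes, tools included StringTie 1.3.0, HISAT2 2.0 and Bowtie 0.12.2, whose roles are not given. Those notes name a mouse build (mm8), while identifiers were human. The peak caller is not given in the sources used here. Per the file headers, input expression was deposited as FPKM. Differences in m6A were deposited as log2 values with a p-value each, and adjusted p-values as a log10 score. It also gave the ratio (fold change) of expression with p-values and q-values, and each deposited peak list a fold enrichment ratio with log10 scores. Of 8970 differential rows, 283 without a gene name or with p above 1 were left out. From the knockdown list 3 repeated rows were dropped. File starts count from 0 and were shifted by 1.

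Deposited log2 values were control over knockdown. For expression they were recomputed to within 1.46e-13. For m6A the turned value had rho 0.81 with the ratio of list enrichments over 5828 regions, with the same sign in 89.8%. Both were turned to knockdown over control.

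Expression was tested on log2(FPKM + 1), which understates changes of low genes, for means of at least 1 FPKM. The test was limma 3.58.1 (R 4.3.3, trend, two-sided, no block, Benjamini-Hochberg over 4515 genes, threshold 0.05). It was also run on simulated data with far fewer changed genes and no shift between libraries. That run cannot tell how well the calls hold in these data. FPKM are not counts and depth was unknown, so no count test was run. Peak blocks were compared with bedtools 2.31.1, without regard to strand. All 10 genes were named, with the other iron genes that had a differential region; some items are not reported here. FLVCR1 was chosen after its values were seen.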

Additional observations from a re-analysis of the deposited data

How the results depend on the processing

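Limits: FPKM were listed for 5 of the 10 genes, depth was unknown, and peaks came from a single list per condition. The number of genes called in limma went from 2819 to 1603 among genes of at least 5 FPKM, and lay between 2408 and 3018 when a library was left out. The number of the 10 genes called went from 2 to 1 after quantile normalization and lay between 2 and 4 when a library was left out; for the other iron genes it lay between 6 and 10. STEAP3 stayed a called rise in all 14 alternatives and FTH1 in 13. Signs turned, without a call, for NCOA4 (0.026) and FBXL5 (0.021) after median-centring, and for SLC48A1 after quantile normalization (-0.022) and in the range with a library left out (-0.013 to 0.072). None of the 6 differential regions had an absolute log2 change of at least 1 (a count of 0). At 4-fold enrichment or more, 9 control and 5 knockdown peaks were left, with 5 and 5 overlapping the other list, and 10 knockdown peaks overlapped by at least 50% in both directions. The cause of these shifts, beyond the fewer genes or peaks kept, was not tested.

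With the replicate number as a block, limma called 2747 genes and the same number of the 10 genes, 2. The block turned GLRX5 into a call (adjusted p = 0.0278). Deviations of libraries with the same number had correlations of -0.0769, 0.0278 and 0.0247, against -0.176 to 0.189 for different numbers. With 3 libraries per group, these values cannot tell whether libraries with the same number share a culture or day.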

Other observations

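Among the other iron genes, the haem exporter gene FLVCR1 had the highest listed enrichment, 213-fold in controls and 395-fold after knockdown, with 3 peaks and 1 peak. It was picked for this value. Upper quartiles of all peaks were 10.2-fold in controls and 12.7-fold after knockdown. No differential region or FPKM was listed for FLVCR1, so the input level under these ratios is unknown.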
